A study of Mus musculus with 2 samples.

Results

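Heat-shock proteins, J proteins, chaperonins and BAG proteins were followed in iTreg cells, the regulatory T cells that arise in culture when naïve CD4+ T cells meet TGF-β. The members were taken by name from the deposited table: the Hsp genes of the a, b, d, e and h series and of Hsp90, all Dnaj genes, the numbered Cct subunits and the numbered Bag genes. This gave 89 of the 23282 rows of the table. By what is known of their proteins, 57 were placed in the cytosol or nucleus, 13 in the endoplasmic reticulum (ER), 10 in mitochondria and 9 elsewhere (vesicles, endosomes, cilia, other membranes). The cells were wild-type mouse splenic naïve CD4+ T cells, in the study from C57BL/6 mice used at 7 to 10 weeks of age, activated through CD3 and CD28 with IL-2, TGF-β1 and antibodies to IFN-γ and IL-4. Culture lasted 1 day, in DMSO for the control and in 10 μM Tubastatin A for the treated cells. Tubastatin A is an inhibitor of the cytoplasmic deacetylase HDAC6, abbreviated TSA here as in the study, and is not trichostatin A. Each condition gave 1 library from unsorted cultured cells, so the differences below have no replicate check and no p-value is given.

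Chaperones bind unfolded or newly made proteins and help them fold. Hsp70 proteins hold short stretches of a client and let go in a cycle driven by ATP. J proteins (Hsp40) bring clients to Hsp70 and start ATP hydrolysis, while BAG proteins, Hspbp1 and Hsp110 proteins swap ADP for ATP and so release the client. Hsp90 acts late, on kinases and receptors, and the chaperonins (CCT in the cytosol, Hsp60 with its lid Hsp10 in mitochondria) enclose a client in a chamber. In heat-stressed cells HSF1 drives the cytosolic genes, and in ER stress ATF6 and XBP1 drive those of the ER. HDAC6 removes acetyl groups from tubulin and from Hsp90 and carries ubiquitin-tagged aggregates along microtubules.

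The libraries were 3′ libraries (QuantSeq), in which a transcript is read next to its poly(A) tail. They held 10845690 control reads and 10432266 TSA reads on genes, recovered from the deposited log2 values as described under the processing. Below, "log2 difference" means the deposited log2 value of the TSA library less that of the control, and "ratio" means normalized TSA reads over normalized control reads, with an exact Clopper-Pearson 95% interval. That interval is for counting error alone and sets one library against the other, with nothing to say of other cultures. A floor of 3 reads corresponds to 0.277 CPM (reads scaled to the library total) in the control and 0.288 in the TSA library. The ribosomal RNA precursor Rn45s took 8.72% and 9.63% of the reads. All 8 T cell markers examined (such as Cd3e and Cd4) had reads, 18646 in the control and 20422 in the TSA library together. B cell markers (5 genes) summed to 12 and 15 reads, myeloid markers (7 genes) to 63 and 50, NK markers (3 genes) to 0 and 3, erythroid markers (3 genes) to 42 and 54 and the CD8 genes (2 genes) to 80 and 87. Dendritic cell markers (4 genes) summed to 13 and 39 reads, of which Flt3 gave 0 and 33, and Siglech was at 0 in both, as were Pax5 among the B cell and Klrb1c among the NK markers. Their part in the results below was not tested. The 4 Treg markers examined summed to 12057 and 9926 reads, with Foxp3 at 1633 and 965. In bulk RNA, fewer cells of a type and less RNA per cell cannot be told apart.

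Of the 89 members, 74 had at least 10 reads in at least 1 library and were examined for change. A further 9 had no read in either library (Cct8l1, Dnajb8, Dnajc5b, Dnajc5g, Dnajc22, Hspb2, Hspb3, Hspb8 and Hspb9), and 6 had at most 6 reads (Cct6b, Dnajb7, Hspa1a, Hspa12a, Hspa12b and Hspb7). Among the 74, 5 were higher by more than 2-fold in TSA-treated Treg cells, against 11.5% of the 12164 genes examined in the same way, and 3 were lower, against 3.15%. As shares of the members these are 6.76% and 4.05%. The 5 higher members were Dnajc6, Hspb1, Dnajc12, Bag3 and Hspb6, and the 3 lower were Hspa1l, Dnajc16 and Hspbp1. Dnajc6 and Hspb1 entered only through their reads in the TSA library, and with 10 reads asked of both libraries 3 members were higher. The 95% interval lay wholly above no change for 9 members, where the share over all genes was 28.1%, and wholly below it for 33 members, 44.6% of the 74, where the share over all genes was 28%. Scaling moved this split: with total reads 10 members lay above and 29 below (4096 and 2631 of all genes), and with total reads without Rn45s 13 and 28 (4242 and 2504 of all genes). Under one or both of these scalings the intervals of Cct8, Dnajc5, Hsp90b1, Hspa14 and Hsph1 came to include no change, and those of Bag6, Cct2, Cct3 and Dnajc18 came to lie above it. For the remaining 32 members under the deposited scaling a difference was not detectable at this depth.

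The share of members that were lower differed by read level. Of the 31 members whose mean normalized count reached 1000, 29 were lower in the TSA library, with a median log2 difference of -0.28. Among all 2171 genes at that level 69.4% were lower and the median was -0.12. The 2 exceptions were Bag6 and Cct3, whose intervals included no change. When the libraries were scaled by other rules, 27 to 29 of the 31 members were lower, beside 55.5% to 69.65% of all genes. Between 100 and 1000 the members had a median of -0.023 (27 members) and all genes one of -0.024. Under 100, 11 of 16 members were higher, with a median of 0.46, the same as the 0.46 of all 3976 genes at that level. Thus the members past 2-fold lay mostly among those with few reads, and Hspbp1 was the only one with more than 100 reads in a library.

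**Figure D1:**
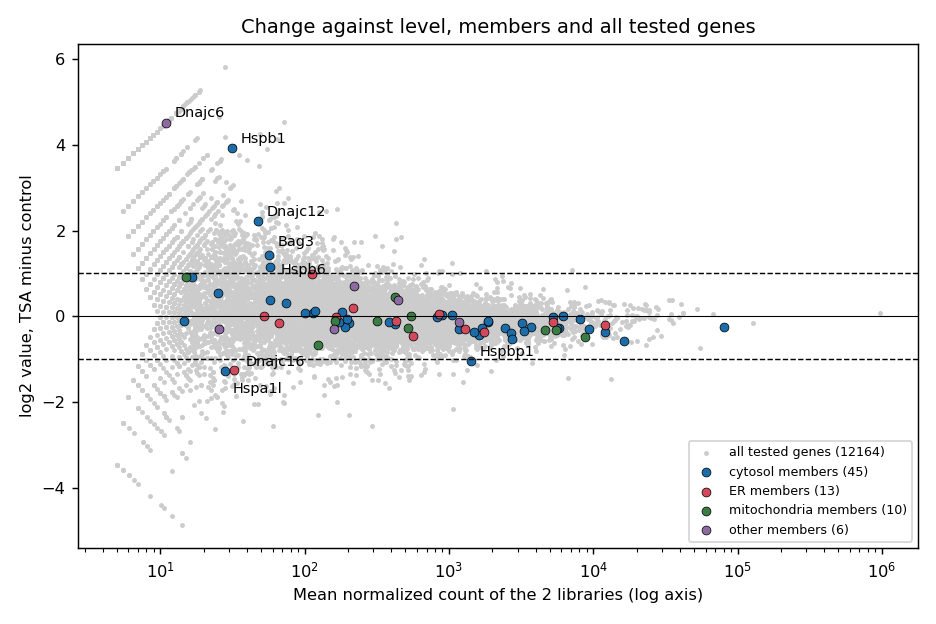
Change of each gene against its level. The horizontal axis is the mean normalized count of both libraries on a log axis, the vertical axis the log2 TSA value minus the log2 control value, grey points are the 12164 genes examined, coloured points are the 74 members by compartment, and dashed lines mark 2-fold. Named points are the 8 members past 2-fold, and 29 of the 31 members at a mean of 1000 or more lie below 0.

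Hspb1 and Hspb6, the 2 small heat-shock genes with enough reads, were higher in the TSA library, as was Bag3. Hspb1, which encodes the small heat-shock protein Hsp27 (Hsp25 in mice), had 3 reads in the control and 60 in the TSA library, a log2 difference of 3.91 and a ratio of 19.8 (6.46 to 98.7). Hspb6, the small heat-shock protein Hsp20, had 35 and 80 reads, a log2 difference of 1.16 and a ratio of 2.26 (1.504 to 3.47). Its last 500 bases overlap Lin37 on the opposite strand, which had 54 and 96 reads, and strand use in the counting is not given in the sources used here. Bag3, a partner of Hsp70 and small heat-shock proteins in selective autophagy of aggregates, had 30 and 83 reads, a log2 difference of 1.42 and a ratio of 2.74 (1.78 to 4.31). For these 3 genes the TSA library was the higher by more than counting error, at a read level (mean under 100) where 32.2% of all genes were higher by more than 2-fold. Hspb11, which in spite of its name is the intraflagellar transport protein IFT25, had 166 and 276 reads, a log2 difference of 0.72 and a ratio of 1.65 (1.35 to 2.01). The other small heat-shock genes (Hspb2, Hspb3, Hspb7, Hspb8 and Hspb9) had 0 or 1 read in each library.

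Other heat-inducible genes gave other values. Hspa1b, the inducible Hsp70, had 15 and 14 reads and Hspa1a, its near-identical neighbour, 3 and 2, so reads of one could have been given to the other. Dnajb1, the inducible Hsp40, had 875 and 903 reads, a ratio of 1.02 (0.930 to 1.12). Hsph1, an Hsp110, had 1923 and 1786 reads, a ratio of 0.920 (0.862 to 0.981), and Hsp90aa1, the inducible Hsp90, was lower, as given below. Hsf1, which encodes the heat shock factor itself, had 309 and 353 reads, a ratio of 1.13 (0.968 to 1.32), and Hsf2 had 444 and 560, a ratio of 1.25 (1.10 to 1.42).

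Promoter sequences are shown for 5 of these genes, because they carry a short form of the heat shock element that HSF1 binds while their reads went different ways. A RefSeq promoter (GRCm38.p6, 250 bases before to 50 after a transcript start) was at hand for 73 of the 89 members. Hsp90aa1, Hsp90ab1, Hspa8, Hspa9, Cct4 and Dnajc12 were among those without an entry, so they were not searched. The element was searched on both strands as GAANNTTC or TTCNNGAA, and matches may overlap. It was found for 21 of the 73 members (28.8%) and for 4587 of 27025 genes (17.0%). Among members past 2-fold it was found for 3 of the 4 higher ones with a promoter entry (Bag3, Hspb1 and Hspb6) and for none of the 3 lower ones. These members were picked by their change, so the split is not a test of the element. Under the deposited scaling, Cct5, Cct6a, Dnaja1, Dnajc10, Hspd1, Hspe1 and Hsph1 also held it and had intervals below no change. Of the members that held it, only Bag3, Hspb1 and Hspb6 had an interval above no change. Of 49 cytosolic members 17 had the element, of 11 ER members 1 (Dnajc10) and of 7 mitochondrial members 2 (Hspd1 and Hspe1). A longer match, with a further GAA or TTC unit after another 2 bases, was found for 4 members (Dnajb6, Hspd1, Hspe1 and Hsph1), for none of the 4 higher ones, and for 0.662% of all genes. The match of Bag3 lay after the transcript start and is not printed. In the following stretches, written 5′ to 3′ along each gene, capitals mark the element:
Hspb1 promoter, chr5:135887762-135887869, plus strand: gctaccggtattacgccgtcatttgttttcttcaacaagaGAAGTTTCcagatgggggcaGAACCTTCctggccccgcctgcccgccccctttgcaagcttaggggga
Hspb6 promoter, chr7:30553141-30553228, plus strand: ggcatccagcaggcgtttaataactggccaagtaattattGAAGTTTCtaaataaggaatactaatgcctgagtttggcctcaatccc
Hspa1b promoter, chr17:34959295-34959382, minus strand: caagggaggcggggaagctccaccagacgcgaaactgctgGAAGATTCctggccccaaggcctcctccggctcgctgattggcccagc
Hspd1 promoter, chr1:55088019-55088116, minus strand: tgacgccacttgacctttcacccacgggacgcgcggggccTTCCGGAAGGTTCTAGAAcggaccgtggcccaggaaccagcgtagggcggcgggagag
Hspe1 promoter, chr1:55088019-55088116, plus strand: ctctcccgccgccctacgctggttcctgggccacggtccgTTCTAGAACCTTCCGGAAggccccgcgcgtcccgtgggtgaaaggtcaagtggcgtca
Hspb1 held the element at 2 places, between 117 and 90 bases before its start. The stretch of Hspa1b is identical to that of Hspa1a, at chr17:34972213-34972300. Hspd1 and Hspe1 are transcribed away from each other from the same stretch, which holds 3 overlapping matches and is read here once along each strand. Hspb1 and Hspb6 were higher in the TSA library, Hspa1b had nearly equal reads, and Hspd1 and Hspe1 were lower.

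**Figure D2:**
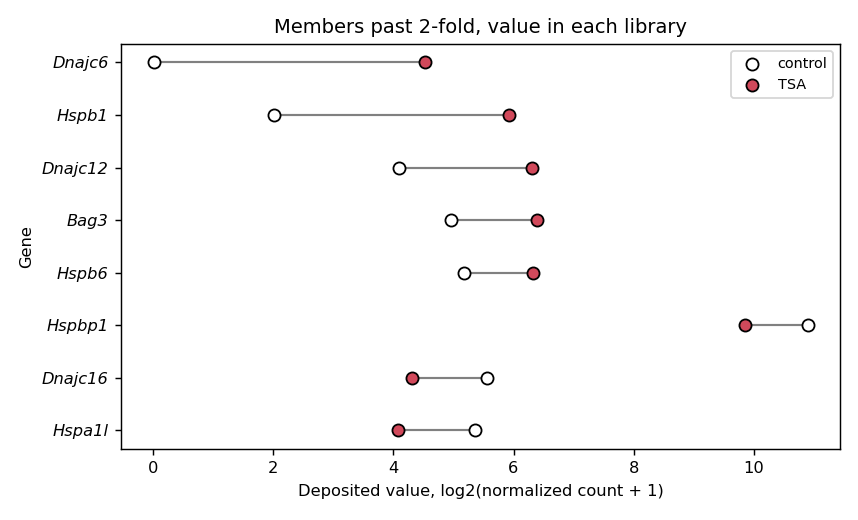
The 8 members past 2-fold. The horizontal axis is the deposited value, log2 of the normalized count plus 1, open circles are the control library, filled circles the TSA library, and a line joins both values of a gene (1 library each). Dnajc6 goes from 0 reads to 22 and Hspb1 from 3 to 60, while Hspbp1 goes from 1903 to 935, with more reads behind it than the other 7 genes.

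Hspbp1, a nucleotide exchange factor that opposes J proteins in the Hsp70 cycle, had the lowest log2 difference of the members with a mean of at least 100. It had 1903 reads in the control and 935 in the TSA library, a log2 difference of -1.04 and a ratio of 0.487 (0.449 to 0.526). It passed 2-fold narrowly, the whole interval did not lie beyond 2-fold, and scaling by total reads brought the log2 difference to -0.97. Its neighbour in name, Hspbap1, had 175 and 190 reads, a ratio of 1.08 (0.871 to 1.33). Hspa1l, the testis-enriched Hsp70 next to Hspa1a, had 40 and 16 reads, a log2 difference of -1.28 and a ratio of 0.396 (0.207 to 0.723). Its end overlaps an antisense transcript, Gm10501, that is not listed in the table. These genes lie at chr7:4660521-4685068 (Hspbp1) and chr17:34972703-34979285 (Hspa1l) in GENCODE M21 on GRCm38, the mm10 assembly that the submitters' processing notes name.

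The remaining BAG genes varied little. Bag1, which binds Hsp70 and the proteasome, had 1295 and 1065 reads, a ratio of 0.814 (0.750 to 0.884), below no change over its whole interval. Bag2, Bag4, Bag5 and Bag6 had ratios between 0.882 (Bag4) and 1.05 (Bag2), with intervals that included no change. Bag6, which guards tail-anchored proteins before their insertion into membranes, had 1032 and 1073 reads.

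In the cytosolic Hsp70 and Hsp90 genes the TSA library was the lower for each form with a mean of at least 1000, as it was for 69.4% of all genes at that level. Hspa8, the constitutive Hsc70, had 13509 and 10571 reads, a log2 difference of -0.37 and a ratio of 0.775 (0.755 to 0.795). Hsp90aa1 had 19453 and 13270 reads, a log2 difference of -0.57 and a ratio of 0.675 (0.661 to 0.691). Hsp90ab1, the constitutive Hsp90, had about 86461 and 73782 reads, a log2 difference of -0.24 and a ratio of 0.845 (0.837 to 0.853). The 2 cytosolic Hsp90 genes thus differed in the size of their change by more than counting error. The exchange factor Hspa4 had 6159 and 5130 reads, a ratio of 0.825 (0.795 to 0.856). Hspa14, which works with Dnajc2 at the ribosome, had 1916 and 1809 reads, a ratio of 0.935 (0.876 to 0.997). With scaling by total reads its log2 difference was -0.027. Hspa4l (214 and 194 reads) and Hspa2 (20 and 30 reads) did not differ by more than counting error.

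The subunits of CCT, the ring-shaped chaperonin that folds actin and tubulin, did not all move alike. Cct7 had 10188 and 8386 reads (ratio 0.815, 0.792 to 0.839), and Cct6a 6271 and 5234 (0.826, 0.797 to 0.857). Cct5 had 4010 and 3434 reads (0.848, 0.8099 to 0.888), and Cct4 3365 and 3031 (0.892, 0.849 to 0.937). These 4 subunits were lower in the TSA library under all scalings tried, as were 55.5% to 69.65% of all genes at a mean of at least 1000. Cct2 had 5251 and 5238 reads (0.988, 0.9505 to 1.03) and Cct3 6112 and 6251 (1.013, 0.977 to 1.05), and neither differed by more than counting error under the deposited scaling. With total reads the interval of Cct3 lay wholly above no change, and without Rn45s those of both did. Cct8 had 8247 and 8011 reads, a ratio of 0.962 (0.933 to 0.992) that turned above 1 with scaling by total reads. Its end overlaps Usp16 on the opposite strand (1334 and 1123 reads). Tcp1, the subunit that the name rule misses, had 4866 and 4668 reads, a ratio of 0.9499 (0.912 to 0.989). Together the Cct genes gave 43447 and 39586 reads, a ratio of 0.902 (0.8900 to 0.915). The testis subunit Cct6b had 3 and 1 reads.

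**Figure D3:**
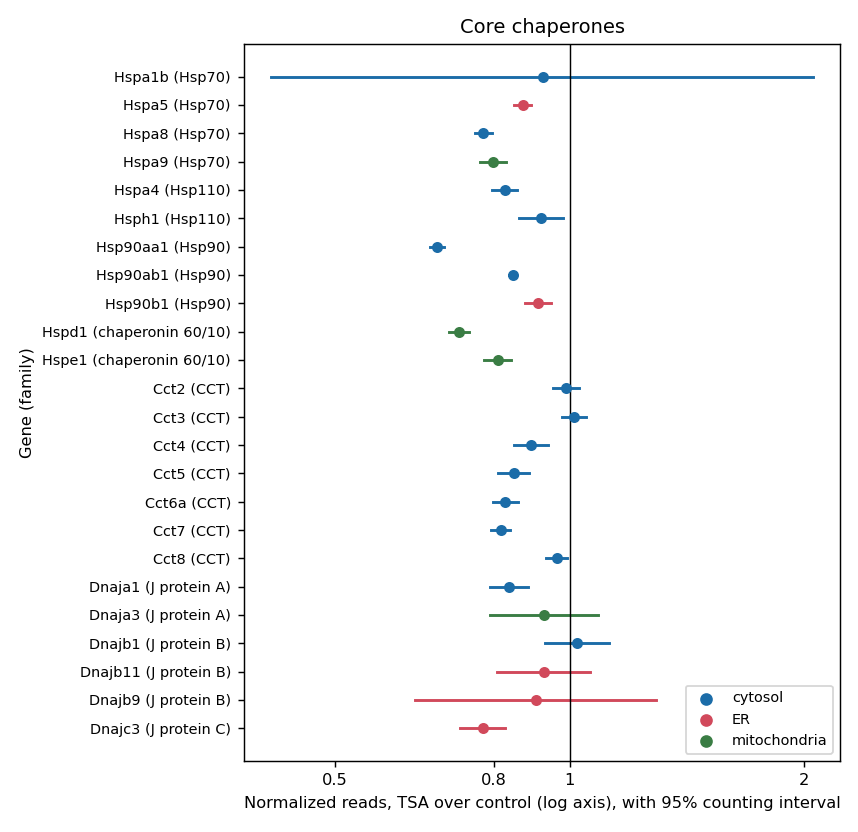
Ratios of the core chaperones. The horizontal axis is normalized TSA reads over normalized control reads on a log axis, points are the ratio, lines the 95% counting interval (1 library per condition), and colours the compartment. Hsp90aa1 at 0.675 and Hspd1 at 0.721 lie farthest to the left of the core members with enough reads (Hspa1a, with 3 and 2 reads, is not drawn, nor is Bag3), while the intervals of Cct2, Cct3, Dnaja3, Dnajb1, Dnajb9, Dnajb11 and Hspa1b cross 1, that of Hspa1b (15 and 14 reads) being the widest.

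The cytosolic J proteins with a mean of at least 1000 were lower. Dnaja1 and Dnaja2, the general partners of Hsc70, had 2655 and 2239 reads (ratio 0.835, 0.789 to 0.884) and 3056 and 2355 reads (0.763, 0.723 to 0.805). Dnajc2 (zuotin), which sits at the ribosome exit, had 3197 and 2256 reads, a log2 difference of -0.52 and a ratio of 0.699 (0.662 to 0.738). Dnajc21, needed for ribosome assembly, had 1856 and 1398 reads (0.746, 0.695 to 0.7999). Dnajc9, a histone chaperone, had 1670 and 1314 (0.779, 0.724 to 0.838). Dnajc8, a spliceosome protein, had 3698 and 2962 (0.793, 0.755 to 0.833). Dnajc7, which links Hsp70 and Hsp90, had 1848 and 1541 (0.826, 0.771 to 0.884). All 7 intervals lay below no change, where 54.9% of all genes at that level did. The ends of Dnaja1 and Dnajc7 overlap Smu1 and Cnp on the opposite strand.

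Dnajc12 was the J protein of the cytosol past 2-fold. This partner of aromatic amino acid hydroxylases had 16 reads in the control and 79 in the TSA library, a log2 difference of 2.22 and a ratio of 4.89 (2.83 to 8.97). Dnajb3, a testis-enriched J protein, had 11 and 22 reads, a ratio of 1.98 (0.920 to 4.52), and lies within the Ugt1a locus on the opposite strand. Dnajb6, which keeps polyglutamine proteins soluble, had 826 and 832 reads, a ratio of 0.997 (0.905 to 1.0995). Dnaja4 (50 and 66 reads), Dnajb2 (113 and 125), Dnajb4 (66 and 83), Dnajb5 (206 and 176), Dnajc17 (98 and 104), Dnajc24 (181 and 167) and Dnajc27 (200 and 194) did not differ by more than counting error. The end of Dnaja4 overlaps Wdr61 on the opposite strand (931 and 980 reads).

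In the ER, all 4 members with a mean of at least 1000 were lower, as were 69.4% of all genes at that level. Hspa5 encodes BiP, the ER Hsp70, and had 12781 and 11229 reads, a log2 difference of -0.20 and a ratio of 0.870 (0.848 to 0.892). Hsp90b1 encodes Grp94, the ER Hsp90, and had 5444 and 5000 reads, a ratio of 0.909 (0.875 to 0.945). The end of Hsp90b1 overlaps a pseudogene on the opposite strand, 1810014B01Rik, with 212 and 126 reads. Dnajc3, which binds misfolded proteins for BiP, had 1967 and 1535 reads, a log2 difference of -0.37 and a ratio of 0.773 (0.722 to 0.826). Dnajc1, an ER membrane J protein, had 1418 and 1169 reads, a ratio of 0.816 (0.755 to 0.883). Its end overlaps Mllt10 on the opposite strand (1167 and 1131 reads). Dnajc10 (ERdj5), a disulfide reductase with a J domain, had 648 and 474 reads, a log2 difference of -0.46 and a ratio of 0.724 (0.642 to 0.817). The J proteins Dnajb9 (69 and 63 reads) and Dnajb11 (443 and 414 reads), both known targets of the ER stress response, did not differ by more than counting error, with ratios of 0.904 (0.632 to 1.29) and 0.925 (0.807 to 1.06). Hspa13 had 165 and 164 reads.

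ER membrane J proteins went both ways. Dnajb14 had 74 and 150 reads, a log2 difference of 0.995, just inside 2-fold on that scale, and a ratio of 2.01 (1.51 to 2.69). Dnajb14 passed 2-fold with scaling by total reads (log2 difference 1.065). Its paralog Dnajb12, the other J protein of this pair that recruits Hsc70 to the ER surface, had 52 and 53 reads, a ratio of 1.009 (0.675 to 1.51). Dnajc16 had 46 and 19 reads, a log2 difference of -1.25 and a ratio of 0.409 (0.226 to 0.712). Dnajc14 (835 and 872 reads) and Dnajc18 (201 and 233 reads) had ratios of 1.03 (0.939 to 1.14) and 1.15 (0.946 to 1.39). The end of Dnajc14 overlaps Sarnp on the same strand, so reads of the pair could have been split.

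The ER stress response element (CCAAT, a gap of 9 bases, then CCACG, on either strand) was found for 3 of the 11 ER members with a promoter entry, Hspa5, Hsp90b1 and Dnajc3, for no member of another compartment, and for 37 of 27025 genes (0.137%). These are shown because they are the ER genes with this element, and each of them was lower in the TSA library. Capitals mark the element, gap included:
Hspa5 promoter, chr2:34771985-34772083, plus strand: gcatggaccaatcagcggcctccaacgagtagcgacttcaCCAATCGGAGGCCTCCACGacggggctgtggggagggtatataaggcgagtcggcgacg
Hsp90b1 promoter, chr10:86705493-86705694, minus strand: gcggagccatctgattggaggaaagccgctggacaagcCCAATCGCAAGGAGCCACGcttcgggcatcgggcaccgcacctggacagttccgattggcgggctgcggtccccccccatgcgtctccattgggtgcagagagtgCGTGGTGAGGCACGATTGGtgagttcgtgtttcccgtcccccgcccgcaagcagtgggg
Dnajc3 promoter, chr14:118937787-118937885, plus strand: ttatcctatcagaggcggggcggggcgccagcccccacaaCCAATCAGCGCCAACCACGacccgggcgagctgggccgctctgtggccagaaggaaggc
Hsp90b1 held it at 2 places, on opposite strands, between 212 and 89 bases before the start. Of 12 genes of the ER stress response read as well, 5 had an interval below no change and 1 above it, with a median log2 difference of -0.10, where the shares over all genes were 28% and 28.1%. Edem1, Ddit3 and Syvn1 were among the lower ones, with ratios of 0.734, 0.833 and 0.842, and the sensor gene Eif2ak3 had a ratio of 1.22 (0.9704 to 1.55). Atf6 had 112 and 237 reads, a log2 difference of 1.06 and a ratio of 2.10 (1.67 to 2.65), and Xbp1 had 955 and 1045, a ratio of 1.08 (0.992 to 1.18). Ern1, which encodes the sensor IRE1 that splices Xbp1, had 16 and 4 reads, a ratio of 0.248 (0.0602 to 0.767). Atf4 had 5017 and 3321 reads, a log2 difference of -0.61 and a ratio of 0.655 (0.627 to 0.685).

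In mitochondria Hsp60, Hsp10 and the matrix Hsp70 were lower, as were 69.4% of all genes at their level, a mean of at least 1000. Hspd1, which encodes Hsp60, had 10118 and 7372 reads, a log2 difference of -0.47 and a ratio of 0.721 (0.70002 to 0.744). Hspe1, which encodes its lid Hsp10, had 5129 and 4184 reads, a log2 difference of -0.31 and a ratio of 0.808 (0.775 to 0.842). The 2 intervals did not overlap, although both genes start from the stretch printed above. Hspa9, the matrix Hsp70 mortalin, had 6155 and 4955 reads, a log2 difference of -0.33 and a ratio of 0.797 (0.768 to 0.828). Dnaja3, its J protein in the matrix, had 328 and 307 reads, a ratio of 0.927 (0.791 to 1.09), which included no change.

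The J proteins of the mitochondrial membranes were more mixed. Dnajc15, a J protein of the import motor that also restrains respiratory complex I, had 356 and 489 reads, a log2 difference of 0.44 and a ratio of 1.36 (1.18 to 1.56), and was higher by more than counting error. Dnajc19, its paralog in the same motor, had 543 and 553 reads, a ratio of 1.008 (0.894 to 1.14). The end of Dnajc19 overlaps Fxr1 on the opposite strand (1216 and 1234 reads). Dnajc11, of the complex that shapes the cristae, had 572 and 476 reads (0.824, 0.728 to 0.932), and Dnajc30, which aids complex I turnover, had 151 and 95 (0.623, 0.477 to 0.811). Dnajc30 had the lowest ratio of the mitochondrial members. Dnajc4 (168 and 157 reads) and Dnajc28 (10 and 20 reads) did not differ by more than counting error.

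The members placed elsewhere included Dnajc6, whose log2 difference of 4.51 was the highest on the deposited scale but, with a pseudocount of 5, was 2.43 beside 3.01 for Hspb1. Dnajc6, which encodes auxilin, the J protein that strips clathrin from vesicles and is best known in neurons, had no read in the control and 22 in the TSA library, at least 7.26-fold higher against the floor of 3 reads, while the exact interval of the ratio begins at 5.42. Gak, the broadly expressed relative of auxilin that the name rule misses, had 738 and 813 reads, a ratio of 1.09 (0.986 to 1.21). Dnajc13 (Rme8), which sorts endosomal cargo, had 386 and 504 reads, a log2 difference of 0.37 and a ratio of 1.29 (1.13 to 1.48). Dnajc5, the cysteine string protein of secretory vesicles, had 1217 and 1116 reads, a ratio of 0.908 (0.836 to 0.986). Dnajc25 (175 and 145 reads) and Dnajb13 (28 and 23 reads, with its end over Ucp2 on the opposite strand) did not differ by more than counting error.

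Set side by side, the compartments had close medians. The median log2 difference was -0.13 for 45 cytosolic members, -0.14 for 13 ER members and -0.19 for 10 mitochondrial members, and 0.015 for all genes examined. Of the cytosolic members 30 were lower at any size, of the ER members 9 and of the mitochondrial members 7, where 48.6% of all genes were lower. The interval lay wholly below no change for 21 cytosolic, 6 ER and 5 mitochondrial members (46.7%, 46.2% and 50%), and wholly above it for 4, 1 and 1. Over all genes the shares were 28% below and 28.1% above. By level, the interval lay below no change for 90.3% of the members and 54.9% of all genes at a mean of at least 1000, and for 11.1% and 29.9% at 100 to 1000. The medians stayed below 0 for all 3 compartments under every scaling, pseudocount and filter tried, but with total reads without Rn45s they were -0.045, -0.052 and -0.11. With the chaperones that the name rule misses they were -0.114, -0.112 and -0.11, and with only members of well-established compartment -0.155, -0.143 and -0.293, so the order of the compartments was not stable.

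The summed reads separated the compartments more than the medians did. Cytosolic members went from 199221 to 167389 reads, a ratio of 0.832 (0.827 to 0.837). ER members went from 24143 to 21375, a ratio of 0.877 (0.861 to 0.893), and mitochondrial members from 23530 to 18608, a ratio of 0.783 (0.768 to 0.798). These 3 intervals did not overlap. Taken as shares of the total reads of each library, the ratios were 0.874, 0.920 and 0.822 in the same order. A single gene weighed heavily on each sum: Hsp90ab1 held, over both libraries, 43.7% of the cytosolic reads, Hspa5 52.7% of the ER reads and Hspd1 41.5% of the mitochondrial reads. With the leading gene left out of each of the 3 sums, the ratios were 0.822, 0.884 and 0.83, and the cytosolic sum then had the lowest ratio. All 89 members together made up 2.29% of the control library and 2.01% of the TSA library.

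**Figure D4:**
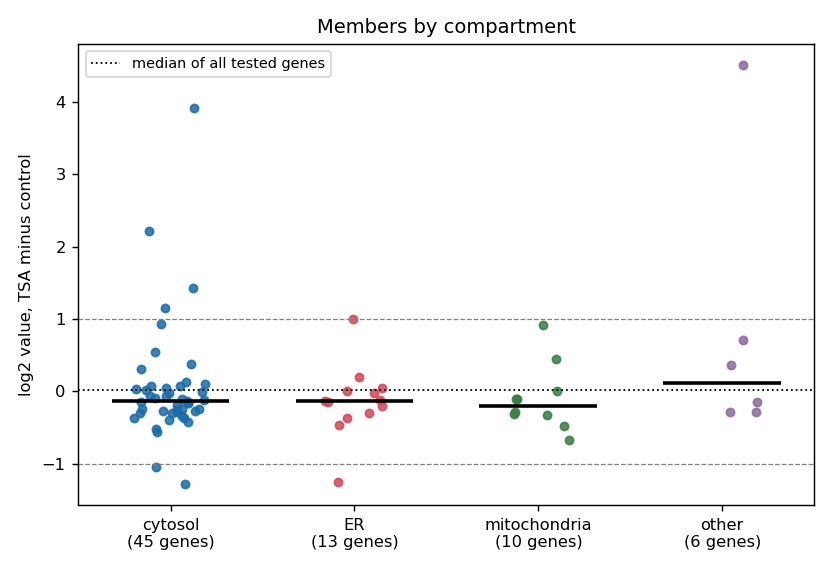
Members by compartment. The vertical axis is the log2 TSA value minus the log2 control value, each point is 1 of the 74 members examined, spread sideways at random, black bars are medians, the dotted line is the median of all genes examined (0.015), and dashed lines mark 2-fold. The bars for cytosol, ER and mitochondria lie at -0.13, -0.14 and -0.19. The highest points are Dnajc6 (4.51) among the members placed elsewhere and, in the cytosol, Hspb1 (3.91) and then Dnajc12 (2.22). Bag3 and Hspb6, also of the cytosol, lie above the upper dashed line as well.

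A second list of 84 genes that work with the members was read in the same way, and 82 had enough reads. Of these, 1 was higher by more than 2-fold (Atf6) and 1 lower (Ern1, which entered only through its 16 control reads), 13 had an interval wholly above no change and 43 wholly below it, where the shares over all genes were 11.5%, 3.15%, 28.1% and 28% in that order, and the median log2 difference was -0.14. Among 21 cytosolic co-chaperones, 16 had an interval below no change and 4 one above it. They included the Hsp90 partners Ahsa1 (2693 and 2173 reads, ratio 0.799, 0.755 to 0.846) and Ptges3 (p23, 4587 and 3947 reads, 0.852, 0.816 to 0.889). The lowest was Ppp5c, a phosphatase that binds Hsp90, with 1751 and 939 reads, a log2 difference of -0.91 and a ratio of 0.531 (0.4900 to 0.575). Among 17 ER folding genes 9 were lower and 2 higher, and among 11 mitochondrial ones 7 were lower and none higher. Of all genes, 29.9% were lower by the same measure at a mean of 100 to 1000, the level of all 11 mitochondrial genes, and 54.9% at a mean of at least 1000. Of the chaperones that the name rule misses, Trap1, the mitochondrial Hsp90, had 912 and 1040 reads (ratio 1.13, 1.03 to 1.24). Hscb, a mitochondrial J protein of iron-sulfur cluster assembly, had 174 and 251 reads (1.43, 1.17 to 1.74). Both were higher in the TSA library. At their level, a mean of 100 to 1000, 24.4% of all genes had an interval above no change. The mitochondrial chaperones Hspd1, Hspe1 and Hspa9, at a mean of at least 1000, were lower. Hyou1 (940 and 882 reads) and Sec63 (1314 and 1412 reads) did not differ by more than counting error. Hdac6, the target of TSA, had 146 and 166 reads, a ratio of 1.13 (0.896 to 1.42).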

How the data were processed

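RNA from 1 control and 1 TSA culture was sequenced as QuantSeq 3′ libraries with single 75-nt reads, and the authors analysed them with ExDEGA. The submitters' processing notes name Bowtie2, bedtools and mm10, without versions. The deposited values are log2 of a normalized count plus 1, scaled between libraries by the authors in a way not given in the sources used here. For low genes 2 to the power of a value, minus 1, fell on steps of 1.005 (control) and 0.995 (TSA) normalized counts per read. Of values of 1 to 300 reads, 99.6% and 99.8% lay within 0.1 of whole reads. Values carry 3 decimals, so larger read numbers are exact to 0.035%. Values in the table that came to 0 whole reads were read as 0 reads.

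A gene was examined if either library had 10 reads or more, with 2-fold on the deposited scale (pseudocount 1) as the threshold the study uses. Exact Clopper-Pearson 95% intervals were computed on the reads. PCR copies cannot be told from other molecules, so intervals and the floor of 3 reads cover counting error only. No member symbol was repeated in the table. Compartments were assigned by hand, and all 89 members were placed in GENCODE M21 (GRCm38). Not every overlap of a member's end with another gene is named. Members with full values are the core chaperones, those past 2-fold, and the 5 highest and 5 lowest whose mean normalized count reached 100. The members and lists were chosen with earlier results of these data known. The steps were tested on simulated data. Computations used matplotlib 3.10.9, pandas 2.3.3, scipy 1.17.1 and numpy 2.4.6 under Python 3.11.15. Alternatives covered scaling, pseudocount, filter, threshold, compartment lists and the gene with the most reads. Genes of the second list without printed values enter only its counts.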

Additional observations from a re-analysis of the deposited data

How the results depend on the processing

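No paired analysis was possible because each condition has a single library, so none could be left out either. Without a filter beyond 1 read, 7 members were higher and 6 lower (2817 genes higher and 1200 lower in all). With at least 10 reads in both libraries 3 members were higher and 3 lower (524 genes higher, 223 lower). With a mean of at least 50, 2 members were higher and 1 lower (278 and 141 genes). At 1.5-fold 9 members were higher and 4 lower (2279 genes higher, 1014 lower). With the whole interval beyond 2-fold 3 members were higher and 0 lower (604 and 99 genes). Scaled by total reads, 6 members were past 2-fold higher and 2 lower (1505 and 325 genes). Scaled by total reads without Rn45s, 7 were higher and 2 lower (1524 and 318 genes). For the cytosol, ER and mitochondria in turn, the ratios of summed reads were 0.874, 0.9204 and 0.822 with total reads, 0.882, 0.9296 and 0.8304 with total reads without Rn45s, and 0.857, 0.903 and 0.807 with the upper quartile. Without the member with the most reads they were 0.822, 0.884 and 0.8295. The log2 difference of Cct8 turned to 0.014 with total reads and 0.029 without Rn45s. All 56 recomputed medians kept their sign. The cause of these moves was not tested, apart from fewer genes passing a stricter filter. Low reads limit, among others, Hspb1, Dnajc6, Hspa1a and Hspa1b.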

Other observations

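Genes that handle aggregates or fold actin and tubulin ahead of CCT were read with the same intervals. Sqstm1, the autophagy receptor p62 and a partner of HDAC6 in aggregate clearance, had 1046 and 1468 reads, a log2 difference of 0.48 and a ratio of 1.39 (1.28 to 1.51). Vcp, the segregase p97, had 5536 and 5583 reads, a ratio of 0.999 (0.962 to 1.04). Ubqln4 had 779 and 601 reads, a ratio of 0.764 (0.686 to 0.851), while its paralogs Ubqln1 and Ubqln2 had ratios of 1.07 (1.003 to 1.14) and 1.011 (0.856 to 1.19). Of the 6 prefoldin subunits, which hand actin and tubulin to CCT, 4 had an interval below no change and 1 was higher, Pfdn5, with 1735 and 2001 reads, a ratio of 1.14 (1.07 to 1.22), where the shares over all genes were 28% below and 28.1% above. At a mean of 100 to 1000 those shares were 29.9% and 24.4%, and at 1000 or more 54.9% and 20.7%. The prefoldins fell at both of these levels. Among ER folding genes, Canx (5340 and 4106 reads, ratio 0.761, 0.731 to 0.793) and Calr (8826 and 7439 reads, ratio 0.835, 0.809 to 0.861) were lower, as BiP and Grp94 were. Pdia6 (3172 and 3776 reads, ratio 1.18, 1.12 to 1.24) and Sil1, an exchange factor of BiP (179 and 265 reads, ratio 1.47, 1.21 to 1.78), were higher. These genes are named after their values were seen.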
